A study of Rattus norvegicus with 23 samples.

Results

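The comparison set muscle-derived stem cells (MDSC) of male rats in early diabetes (ED-MDSC) against MDSC labelled as non-diabetic (ND-MDSC), both cultured without any added agent. There was 1 small RNA library for each. Of the 792 miR entries counted, 281 reached a mean of 10 reads in the pair, and these are the miRs described. They held 99.98% of the miR reads of ED-MDSC and 99.99% of those of ND-MDSC. ED-MDSC came from Zucker fatty rats 12 weeks old, which lack a working leptin receptor and had mild hyperglycemia and dyslipidemia. The cells were selected by preplating and by Sca1 and CD34, so they are a cultured progenitor fraction and not whole muscle. ND-MDSC are known only from their labels, which give male rats, the quadriceps and no diabetes, while age and strain are not given in the sources used here. Beside the pair, ED-MDSC were sequenced with albumin, with the cyclodextrin carrier, with cholesterol in that carrier, and with 5% serum of non-obese (LZ) or obese (OZ) rats. Further libraries used here were untreated late-diabetes cells (LD-MDSC), ND-MDSC with OZ serum, and 6 libraries of female pelvic floor MDSC, of an obese strain (ZF4-SC) and a non-obese strain (ZL4-SC), each with no serum, LZ serum or OZ serum. Another run (the lipid run) gave 8 more ZF4-SC libraries, 1 untreated, 1 with albumin, 2 with the cyclodextrin carrier, and 2 doses each of palmitate and of cholesterol.

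The 2 libraries of the pair belonged to different sequencing runs. All 6 ED-MDSC libraries and LD-MDSC were in a run of 7 male libraries (the male run), and both ND-MDSC libraries were in a run of 8 with the female cells (the serum run). Stem cell and run therefore cannot be told apart in any ED/ND ratio below. With 1 library per group there was no test, and the intervals given are exact 95% intervals of the ratio of 2 counts. They leave out all error but that of counting, and read counts do not tell PCR copies from separate molecules.

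MicroRNAs (miRs) are short RNAs that pair with messenger RNAs through bases 2 to 8, the seed, and lower their translation or stability. A hairpin precursor yields a 5p and a 3p arm, and neighbouring hairpins are often cut from 1 transcript. In muscle progenitors, miRs such as miR-1, miR-133 and miR-206 accompany differentiation, miR-27 restrains Pax3 and myostatin in the mouse, and miR-21 and miR-29 act on survival and matrix genes. Others report on signaling: miR-146a and miR-155 are induced through NF-kB, miR-132 and miR-212 through CREB, and miR-10 and miR-196 lie inside the Hox clusters that set the position of a tissue along the body axis.

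The mature sequences that the largest differences turned on are printed 5′ to 3′ with the seed in capitals, from RefSeq on rat build GRCr8, where 247 of the 281 miRs had a match by name. The first set shows that 2 miRs with 1 seed can differ greatly in ED/ND ratio. The miR-146 pair has its first 17 bases in common, and miR-204-5p and miR-211-5p differ by A17U, counted from the 5′ end with the base of miR-204-5p first.
miR-146a-5p: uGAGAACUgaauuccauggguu
miR-146b-5p: uGAGAACUgaauuccauaggcugu
miR-204-5p: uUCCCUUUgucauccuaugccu
miR-211-5p: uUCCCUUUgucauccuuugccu
The next set shows close relatives from separate loci, where reads of 1 miR could be assigned to another. With miR-10b-5p read from 2 bases later, 21 bases could be compared with miR-10a-5p, and they differ by U12A in the numbering of miR-10a-5p. The miR-23 pair differs by U19A and the miR-27 pair by C19U, with the base of the a form first.
miR-10a-5p: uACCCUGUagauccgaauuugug
miR-10b-5p: cCCUGUAGaaccgaauuugugu
miR-23a-3p: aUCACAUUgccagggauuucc
miR-23b-3p: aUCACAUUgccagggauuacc
miR-27a-3p: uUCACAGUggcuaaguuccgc
miR-27b-3p: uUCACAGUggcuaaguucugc
The last set holds families in which every measured member with the seed was at least 2-fold higher in ED-MDSC on library totals, against 33.8% of all miRs. With TMM scaling, described below, miR-106b-5p (1.97), miR-181b-5p (1.93) and miR-181c-5p (1.86) were below 2-fold.
miR-17-5p: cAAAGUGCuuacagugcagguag
miR-20a-5p: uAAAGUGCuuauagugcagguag
miR-93-5p: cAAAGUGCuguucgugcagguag
miR-106b-5p: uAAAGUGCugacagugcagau
miR-181a-5p: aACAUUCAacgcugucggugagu
miR-181b-5p: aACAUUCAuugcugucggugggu
miR-181c-5p: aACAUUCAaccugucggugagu
miR-181d-5p: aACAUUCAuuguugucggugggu
miR-132-3p: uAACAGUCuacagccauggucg
miR-212-3p: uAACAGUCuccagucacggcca
On that build miR-146a-5p lies at chr10:28350053-28350074 (minus strand), miR-146b-5p at chr1:255144874-255144897 (plus), miR-10a-5p at chr10:81779730-81779752 (plus) and miR-10b-5p at chr3:80035886-80035907 (plus). miR-204-5p lies at chr1:229743493-229743514 and miR-211-5p at chr1:127189353-127189374, both on the plus strand. How the reads of near-identical miRs, or of miRs with several loci, were assigned is not stated, so the split within such pairs is uncertain.

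ED-MDSC had 3840523 miR reads and ND-MDSC had 7596708, and the other ED-MDSC libraries had between 1701574 and 3335393. Of the 792 entries, 152 were at 0 in all 23 libraries of the series. These included let-7a-5p, miR-125b-5p, miR-133a-3p and miR-133b-3p, miRs of many cells or of muscle, so a listed 0 could not be read as absence. Markers of differentiated striated muscle were near 0 in both libraries: miR-1-3p had 0 reads in each, and miR-206-3p had 9 reads in ED-MDSC and 1 read in ND-MDSC. Of the 14 striated muscle entries, 1 passed the read minimum, miR-499-5p, at 4.43 reads per 1000000 miR reads (RPM) in ED-MDSC and 3.82 in ND-MDSC. Markers of liver and of pluripotent cells had no member. The ND-MDSC library had, like ED-MDSC, a miR that was at or near 0 in the female libraries of its own run. This was miR-196a-5p, at 549.9 RPM in untreated ED-MDSC and 508 in ND-MDSC, against 0 to 1.88 in the 6 female libraries.

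Most miRs were within 2-fold, and those that were not were mostly higher in ED-MDSC. On library totals, 95 of the 281 (33.8%) were at least 2-fold higher in ED-MDSC and 20 (7.12%) at least 2-fold lower, while 166 were within 2-fold. A difference of at least 10-fold was seen for 19 miRs higher and 5 lower. The median ED/ND ratio was 1.45, a shift of 0.54 on the log2 scale. TMM scaling, which centres on the bulk of the miRs, multiplied every ratio by 0.765. It left 59 miRs (21%) past 2-fold upward and 33 (11.7%) downward, with a median of 1.11. Higher miRs were 82.6% of those past 2-fold on totals and 64.1% under TMM, so ratios near 2 depended on the scaling, and ratios are on totals unless TMM is named.

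**Figure D1:**
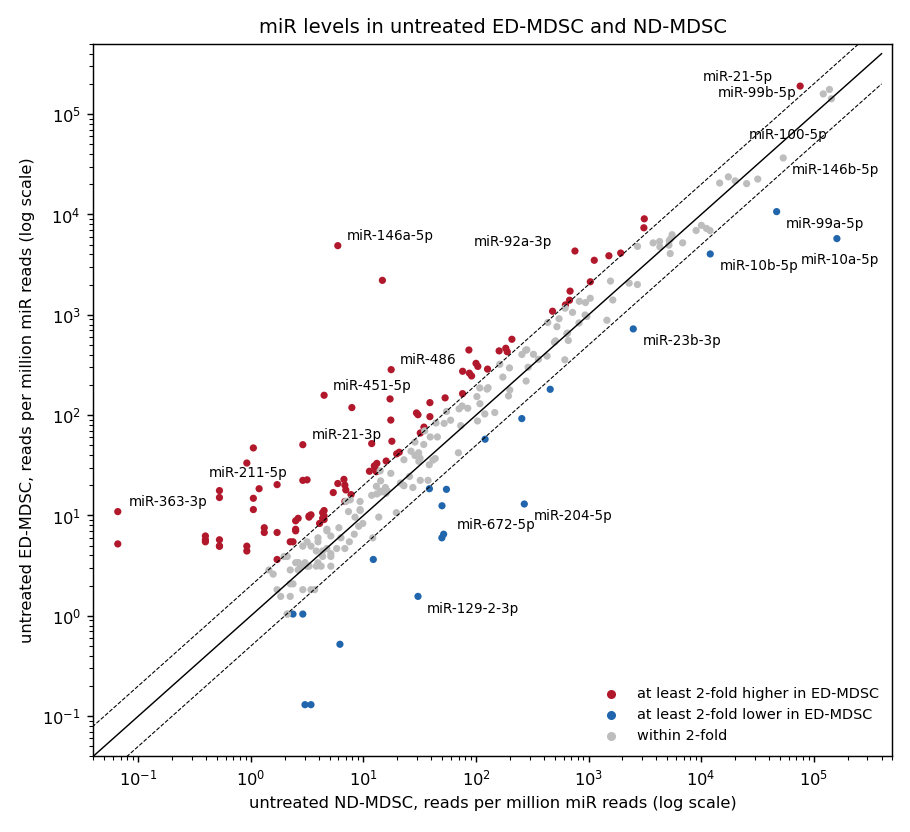
Level of each of the 281 miRs in untreated ED-MDSC (vertical axis) against untreated ND-MDSC (horizontal axis), in RPM on log axes, with dashed lines at 2-fold and counts of 0 drawn at 0.5 reads. The 95 miRs at least 2-fold higher in ED-MDSC (red) outnumber the 20 at least 2-fold lower (blue), and miR-146a-5p and miR-10a-5p lie far from the diagonal at high levels.

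Different miRs led the libraries. In ED-MDSC the 3 most abundant were miR-21-5p with 19.0% of reads (Wilson 95% interval 18.99 to 19.07), miR-99b-5p with 17.6% and miR-143-3p with 15.9%, together 52.5%, against 33.5% for the same miRs in ND-MDSC. In ND-MDSC they were miR-10a-5p with 16.1% (16.03 to 16.08), miR-100-5p with 14.3% and miR-99b-5p with 13.8%, and these made up 32.4% of ED-MDSC and 44.2% of ND-MDSC. The 15 most abundant miRs of a library held 85.5% of the reads in ED-MDSC and 88.4% in ND-MDSC. Several of the most abundant miRs were nearly level. The ED/ND ratio was 0.992 for miR-100-5p (142149 RPM in ED-MDSC, 143362 in ND-MDSC), 1.28 for miR-99b-5p and 1.31 for miR-143-3p.

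Among the miRs linked to NF-kB, miR-146a-5p and miR-155-5p were higher in ED-MDSC and miR-146b-5p was not. miR-146a-5p, which in human cells lowers the adaptor TRAF6 and the kinase IRAK1 of the Toll-like receptor pathway, had 18773 reads in ED-MDSC and 45 in ND-MDSC. This was 4888 against 5.92 RPM, an 816-fold difference (95% interval 616 to 1132), and the largest ratio among miRs with a read in both libraries. Its 6 ED-MDSC libraries had a lowest value of 142, a median of 4874 and a highest of 6669 RPM, LD-MDSC had 1336, and ND-MDSC with OZ serum had 2.34. All 7 libraries of the male run thus lay above both ND-MDSC libraries and above the 6 female libraries, which had 0.365 to 7.17. In the 8 ZF4-SC libraries of the lipid run, miR-146a-5p was between 7.74 and 248 RPM, so values above those of the serum run were not limited to the male run. The 7.74 was that of the untreated library. Depth in that run fell to 104902 miR reads (1 mM palmitate), so high RPM values there may rest on few reads.

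miR-146b-5p, with the same seed, was abundant in both members of the pair, at 36579 RPM in ED-MDSC and 53549 in ND-MDSC (ratio 0.683, interval 0.679 to 0.687). Its level separated libraries in another way. It was 33133 to 53758 in the 3 ED-MDSC libraries with albumin, cyclodextrin or cholesterol and 51981 in ND-MDSC with OZ serum, but 2596 and 2711 in ED-MDSC with LZ and OZ serum, 1802 in LD-MDSC and 1345 to 4371 in the female libraries. miR-155-5p, encoded in a host transcript of activated lymphoid and myeloid cells, was at 89.3 RPM in ED-MDSC and 17.5 in ND-MDSC (ratio 5.09, interval 4.16 to 6.28). The 6 ED-MDSC libraries had 64.9 to 89.3 with a median of 79.5, ND-MDSC with OZ serum had 32.1 and the female libraries had 12.6 to 41.4, so all ED-MDSC values were above all of those. Of the 6 entries of this list, 4 were members, of which 2 were past 2-fold upward and 0 downward, against 33.8% and 7.12% of all miRs, with a median ratio of 3.31.

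Markers of blood cells moved the same way. All 6 blood-cell miRs that passed the read minimum, of 11 entries, were at least 2-fold higher in ED-MDSC on totals, against 33.8% of all miRs, and 5 of them under TMM, against 21%. Their median ratio was 20.9. miR-142-5p (68 reads in ED-MDSC, 4 in ND-MDSC), miR-144-3p (58 and 4) and miR-144-5p (24 and 3) passed the minimum only through ED-MDSC. The count and the median of this list therefore follow in part from the read minimum. miR-451-5p, a red-cell miR, had 606 reads in ED-MDSC and 34 in ND-MDSC (158 against 4.48 RPM, ratio 34.8, interval 24.95 to 51.4). miR-486, found in red cells and in muscle, was at 284 RPM in ED-MDSC and 17.6 in ND-MDSC (ratio 16.1). The white-cell miR-142-5p was at 17.7 RPM in ED-MDSC and 0.527 in ND-MDSC, while miR-142-3p had 0 reads in both libraries and miR-223-3p had 0 reads in ED-MDSC and 1 read in ND-MDSC. The blood list summed to 486 RPM in ED-MDSC and 25.4 in ND-MDSC. It was 366 to 9964 over the 6 ED-MDSC libraries, 1552 in LD-MDSC, 22.2 to 25.4 in ND-MDSC and 20.0 to 225 in the female libraries. In the male run the list and miR-146a-5p did not follow each other: ED-MDSC with OZ serum had the highest miR-451-5p, at 3882 RPM, and a miR-146a-5p level of 368, below the 4888 of untreated cells. The part of blood-cell RNA in the differences of miR-146a-5p, miR-155-5p and the other miRs was not tested, and in bulk RNA more cells of a type and more RNA per cell cannot be told apart. Of the other marker lists, endothelium had 0 of 2 members past 2-fold (median 1.495) and epithelium 0 of 1. Neurons had 2 of 5 lower, against 7.12% of all miRs, and 0 higher, against 33.8% (median 0.850). Both lower members were arms of miR-129, while miR-9a-5p (0.958), miR-128-3p (0.850) and miR-128-1-5p (0.970) were nearly level.

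**Figure D2:**
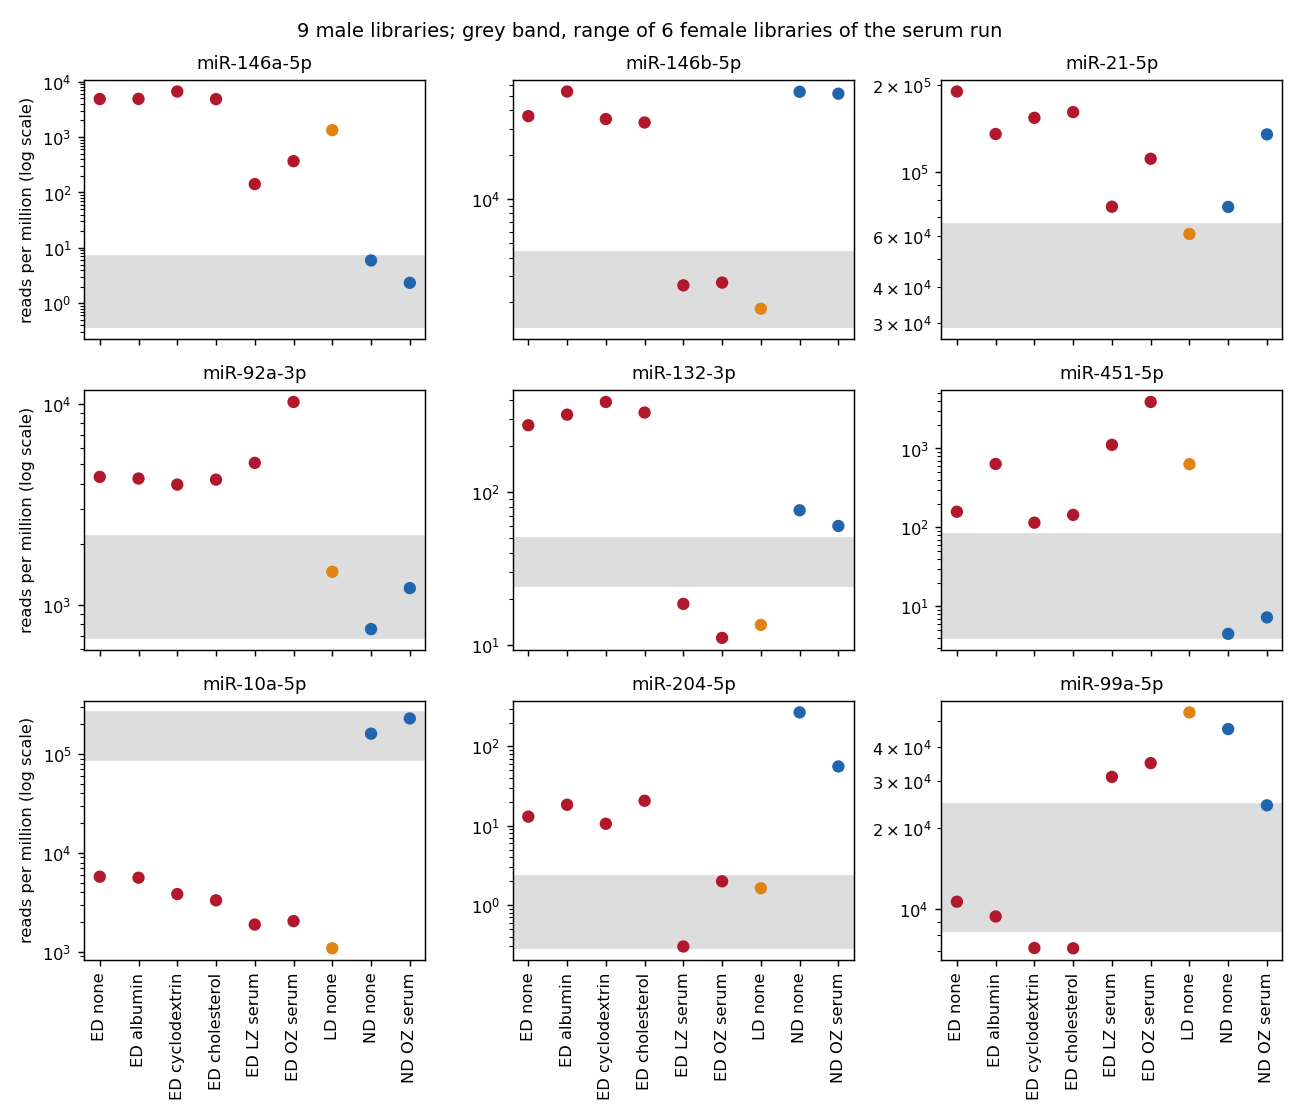
Level of 9 miRs in the 9 male libraries, in RPM on a log axis, with ED-MDSC in red, LD-MDSC in orange, ND-MDSC in blue and the range of the 6 female libraries of the serum run as a grey band. miR-146a-5p and miR-451-5p are above both ND-MDSC libraries in all 6 ED-MDSC libraries, miR-10a-5p is below both in all 6, and miR-146b-5p, miR-132-3p and miR-99a-5p change place with rat serum.

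Both arms of miR-21, a miR that lowers PDCD4 and is often raised in injured tissue, were higher in ED-MDSC. The guide arm miR-21-5p was at 190290 RPM in ED-MDSC and 75705 in ND-MDSC (ratio 2.51, interval 2.50 to 2.52, and 1.92 under TMM). The passenger arm miR-21-3p was at 50.8 RPM in ED-MDSC and 2.90 in ND-MDSC (195 and 22 reads, ratio 17.2, interval 11.3 to 28.6). The arms differed in how they ranked the other libraries. For miR-21-3p the 6 ED-MDSC libraries had 42.2 to 64.9 RPM with a median of 58.8, above ND-MDSC with OZ serum at 1.51 and the female range of 1.71 to 9.46. For miR-21-5p the 6 ED-MDSC libraries had a lowest value of 75848, a median of 144890 and a highest of 190290, and ND-MDSC with OZ serum had 135146, so the groups overlapped.

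The lowest ED/ND ratio of a miR with reads in both libraries was that of miR-10a-5p, encoded beside Hoxb4. It had 22077 reads in ED-MDSC and 1219545 in ND-MDSC, or 5748 against 160536 RPM (ratio 0.0358, interval 0.0353 to 0.0363). Its 6 ED-MDSC libraries had a lowest value of 1887, a median of 3576 and a highest of 5748 RPM, and LD-MDSC had 1086. In ND-MDSC with OZ serum it was at 228746, in the 6 female libraries at 87943 to 263357, and in the ZF4-SC of the lipid run at 125027 to 171526. The 7 libraries of the male run were thus low and all 16 libraries of the other runs high. Its passenger arm miR-10a-3p was at 0.521 RPM in ED-MDSC and 6.19 in ND-MDSC, from 2 and 47 reads (ratio 0.104, interval 0.00990 to 0.321). The relative miR-10b-5p, encoded near Hoxd4, was at 4041 RPM in ED-MDSC and 12038 in ND-MDSC (ratio 0.336, interval 0.330 to 0.341). It was not low across the male run, with 22816 and 20168 RPM in ED-MDSC with LZ and OZ serum and 16934 in LD-MDSC, against 16095 in ND-MDSC with OZ serum. miR-196b-5p, of the Hoxa cluster, went the other way, at 306 RPM in ED-MDSC and 104 in ND-MDSC (ratio 2.95, interval 2.69 to 3.23). Of the 6 members of the Hox list, 4 were at least 2-fold lower in ED-MDSC, against 7.12% of all miRs, and 1 at least 2-fold higher, against 33.8%. The median ratio was 0.409, and TMM gave the same counts, against 11.7% and 21% of all miRs.

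The miR-99, miR-100 and miR-125 family was split. miR-99a-5p was at 10675 RPM in ED-MDSC and 46810.4 in ND-MDSC (ratio 0.228, interval 0.226 to 0.230), while miR-99b-5p and miR-100-5p of the same family were within 2-fold. The 6 ED-MDSC libraries had 7166 to 34963 RPM of miR-99a-5p with a median of 10041, ND-MDSC with OZ serum had 24362 and LD-MDSC had 53975, so the groups overlapped. In the untreated ZF4-SC, the only stem cell sequenced untreated in 2 runs, miR-99a-5p also differed between libraries, with a ratio of 0.209. The passenger arms of miR-125b separated by precursor. miR-125b-1-3p was at 437 RPM in ED-MDSC and 160.5 in ND-MDSC (ratio 2.72), and miR-125b-2-3p, from the precursor beside miR-99a and let-7c, was at 180.97 in ED-MDSC and 456 in ND-MDSC (ratio 0.397). let-7c-5p of that cluster had a ratio of 0.768. Over the family, 2 of 8 members were past 2-fold upward and 2 downward, against 33.8% and 7.12% of all miRs, with a median of 1.13.

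miR-204-5p and miR-211-5p lie in introns of Trpm3 and Trpm1 and have the same seed, through which they lower Runx2 in mesenchymal precursors of mouse and human. Seed groups were formed only from miRs with a RefSeq match by name. Of the 25 with at least 2 members, only theirs held both a miR at least 2-fold lower and one at least 2-fold higher. miR-204-5p had 50 reads in ED-MDSC and 2040 in ND-MDSC (13.0 against 269 RPM, ratio 0.0490, interval 0.0359 to 0.0642). Its 6 ED-MDSC libraries had a lowest value of 0.2998, a median of 11.8 and a highest of 20.6 RPM, ND-MDSC with OZ serum had 55.9, and the female libraries had 0.284 to 2.31. Within the serum run both ND-MDSC libraries were thus above all 6 female libraries. miR-211-5p had 86 reads in ED-MDSC and 22 in ND-MDSC (22.4 against 2.90 RPM, ratio 7.60, interval 4.80 to 13.0). It was at 15.5 and 2.79 RPM with OZ serum in ED-MDSC and ND-MDSC, and at 2.10 in ED-MDSC with LZ serum, inside the female range of 0.916 to 2.86.

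Both arms of miR-129, a miR of neurons, and miR-672-5p were low in the ED-MDSC libraries without serum. miR-129-5p was at 5.99 RPM in ED-MDSC and 49.8 in ND-MDSC (23 and 378 reads, ratio 0.123, interval 0.0754 to 0.183), and miR-129-2-3p at 1.56 and 30.5 (6 and 232 reads, ratio 0.0553). In the 3 ED-MDSC libraries with albumin, cyclodextrin or cholesterol miR-129-5p was at 4.11 to 4.59 RPM, but with LZ and OZ serum it was at 64.5 and 56.1, against 72.4 in ND-MDSC with OZ serum. miR-672-5p was at 6.51 RPM in ED-MDSC and 51.6 in ND-MDSC (ratio 0.129, interval 0.0806 to 0.189), and at 43.4 with OZ serum in ED-MDSC and 21.5 in ND-MDSC. With the serum libraries included, the ED-MDSC and ND-MDSC groups overlapped for these, while miR-129-2-3p reached 23.1 RPM at most in ED-MDSC, below the 26.1 of ND-MDSC with OZ serum.

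The miR-23, miR-27 and miR-24 precursors form 2 clusters with near-identical guide arms, and these differed in direction. From the cluster Mir24-2, Mir27a and Mir23a (chr19:40859455-40859843, minus strand), miR-27a-3p was at 4128 RPM in ED-MDSC and 1929 in ND-MDSC (ratio 2.14, interval 2.09 to 2.19, and 1.64 under TMM). Its passenger arm miR-27a-5p was at 105 and 29.6 (ratio 3.55, interval 3.01 to 4.20), and miR-23a-3p had a ratio of 1.14. From the cluster Mir24-1, Mir27b and Mir23b (chr17:1818669-1819482, minus strand), miR-23b-3p was at 723 RPM in ED-MDSC and 2494 in ND-MDSC (ratio 0.290, interval 0.279 to 0.302). miR-27b-5p was at 18.2 and 54.6 (ratio 0.336) and miR-27b-3p at 6910.3 and 11977 (ratio 0.577). The miR-24-3p arm, which both clusters encode, had a ratio of 0.768. Hairpins within 10000 bases on 1 strand were grouped only for the 247 miRs with a RefSeq match by name. Of these 25 groups, the Mir23b cluster was the only one with a miR at least 2-fold lower and none at least 2-fold higher. Neighbours without a match, such as miR-99a-5p, were left out. The list of miR-224 and miR-452, not grouped here, had 1 of 4 members lower, against 7.12% of all miRs, and 0 higher, against 33.8%. Over both clusters of miR-23, miR-27 and miR-24, 2 of 10 members were at least 2-fold higher and 2 lower, against 33.8% and 7.12% of all miRs, with a median of 0.953. On totals with OZ serum, miR-27b-3p had an ED/ND ratio of 5.61 and miR-23b-3p of 2.03. Under TMM miR-27b-3p stayed above 1 (2.19) and miR-23b-3p did not (0.790), so the direction of miR-23b-3p there depended on the scaling. On totals 9 of the 10 members of both clusters were at least 2-fold higher with OZ serum, against 56.3% of all miRs of that pair.

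**Figure D3:**
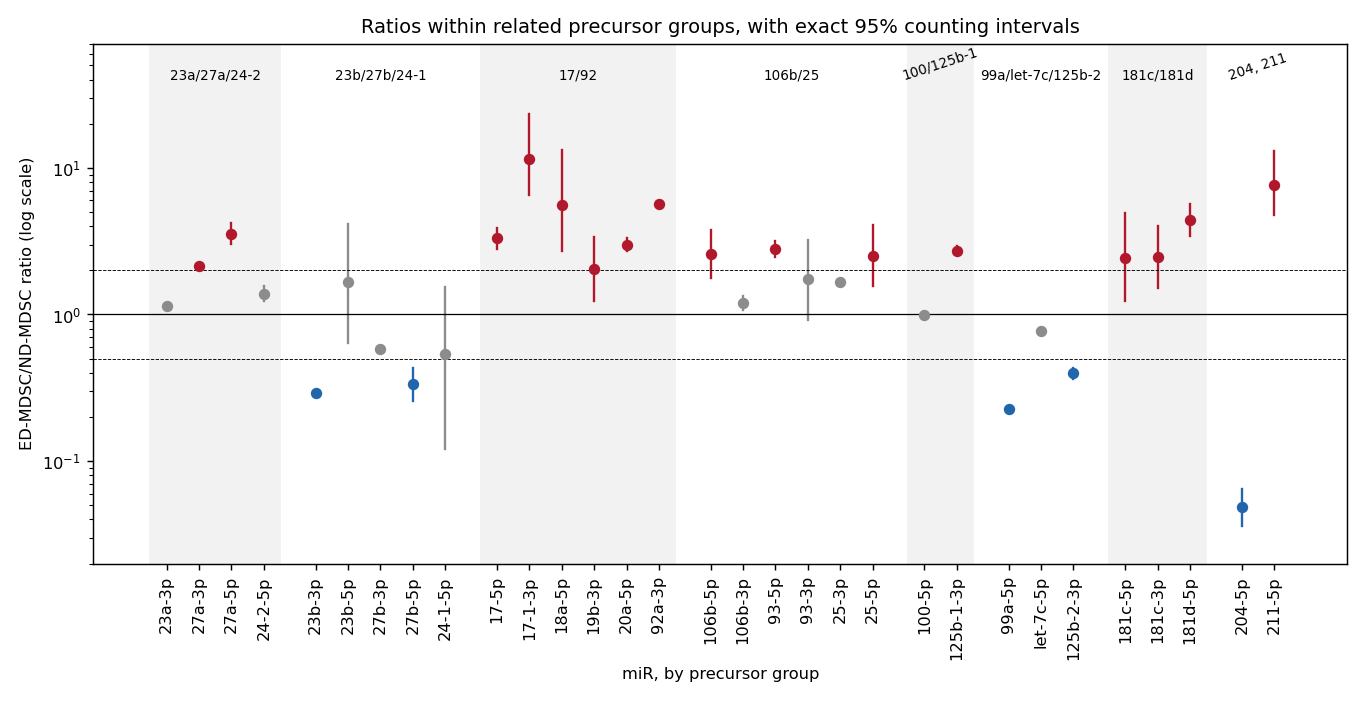
ED/ND ratio of the members of 8 precursor groups, on a log axis, with exact 95% counting intervals. The 4 arms drawn for the miR-23a cluster lie above a ratio of 1 and 4 of the 5 drawn for the miR-23b cluster below it (miR-24-3p, encoded in both, is not drawn), the miR-17/92 members lie above 2, and miR-204-5p and miR-211-5p lie on opposite sides.

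The miR-17/92 cluster and its relatives, which promote proliferation and hold back cell death, had a ratio above 1 for all 13 measured members (12 under TMM). Of these, 10 were at least 2-fold higher and 0 lower, with a median ratio of 2.79, against 33.8% of all miRs. Under TMM, 7 of 13 were at least 2-fold higher, against 21% of all miRs. The 6 members encoded in the Mir17 to Mir92a1 cluster (chr15:98587848-98588632, plus strand) were all at least 2-fold higher, with ratios of 2.04 to 11.5. Of these, miR-17-5p, miR-19b-3p and miR-92a-3p are also encoded in a related cluster on chromosome X, so their reads cannot be assigned to 1 locus. miR-92a-3p was at 4324 RPM in ED-MDSC and 757 in ND-MDSC (ratio 5.71, interval 5.54 to 5.89). Its 6 ED-MDSC libraries had a lowest value of 3959, a median of 4284 and a highest of 10197 RPM, all above ND-MDSC with OZ serum at 1210.03 and the female range of 685 to 2196, and LD-MDSC had 1459. miR-17-5p was at 101 RPM in ED-MDSC and 30.5 in ND-MDSC (ratio 3.31, interval 2.80 to 3.91), and ND-MDSC with OZ serum had 118, inside the ED-MDSC range of 81.6 to 221. The passenger arm miR-17-1-3p had 78 reads in ED-MDSC and 13 in ND-MDSC (ratio 11.5, interval 6.55 to 23.3). miR-363-3p, of the related cluster on chromosome X, had 42 reads in ED-MDSC and 0 in ND-MDSC, at least 27.7-fold higher against a floor of 3 reads in the ND-MDSC library. Its level was 10.9 to 296 RPM over the ED-MDSC libraries, and its highest value was in the OZ serum library that was also highest in blood-cell miRs. miR-25-3p, of the miR-106b/25 cluster, was the most abundant of these after miR-92a-3p and had a ratio of 1.67 (914 RPM in ED-MDSC, 546 in ND-MDSC).

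In the miR-181 family, which lowers Hox-A11 during differentiation of mouse myoblasts, 6 of 7 members were at least 2-fold higher in ED-MDSC, against 33.8% of all miRs, with a median of 2.52. Under TMM 3 were at least 2-fold higher, against 21% of all miRs, and 1 lower, against 11.7%. miR-181a-5p was at 3495 RPM in ED-MDSC and 1123 in ND-MDSC (ratio 3.11, interval 3.03 to 3.20). Its 6 ED-MDSC libraries had 3495 to 7934 RPM with a median of 4065, above ND-MDSC with OZ serum at 611 and the female range of 1049 to 3148. miR-181d-5p had the highest ratio of the 4 guide arms, 4.38 (52.1 and 11.8 RPM in ED-MDSC and ND-MDSC), but the female libraries of the ND-MDSC run had 57.4 to 85.3. The exception was the passenger arm miR-181a-2-3p, at 10.7 RPM in ED-MDSC and 19.6 in ND-MDSC (ratio 0.549).

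The miR-132 and miR-212 cluster was higher in untreated ED-MDSC, and with serum its difference turned round. miR-132-3p was at 274 RPM in ED-MDSC and 76.1 in ND-MDSC (ratio 3.60, interval 3.25 to 3.99), and miR-212-3p at 133 and 39.0 (ratio 3.42, interval 2.96 to 3.96). miR-212-5p was at 1256 and 623 (ratio 2.02) and miR-132-5p at 17.4 and 14.2 (ratio 1.23). Of the 4 members 3 were at least 2-fold higher, against 33.8% of all miRs, with a median of 2.72, and under TMM 2 of 4 were, against 21%. In ED-MDSC with albumin, cyclodextrin or cholesterol, miR-132-3p was at 321 to 388 RPM, but with LZ and OZ serum it was at 18.6 and 11.1, below ND-MDSC with OZ serum at 60.1.

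The other families were mixed. In the miR-148 and miR-152 family 3 of 6 members were at least 2-fold higher, against 33.8% of all miRs, with a median of 1.72, and under TMM 1 of 6 was, against 21%. The passenger arm miR-148a-5p was at 145 RPM in ED-MDSC and 17.2 in ND-MDSC (ratio 8.39, interval 6.94 to 10.3), while its guide arm miR-148a-3p was level (ratio 1.07). In the smooth muscle cluster, miR-145-5p was at 9050.3 RPM in ED-MDSC and 3124 in ND-MDSC (ratio 2.90, interval 2.85 to 2.95), and the other 3 arms of miR-143 and miR-145 were within 2-fold. In the list of miR-34, a target of p53, 3 of 4 members were at least 2-fold higher, against 33.8% of all miRs. Under TMM 0 of 4 were, against 21%. miR-34b-3p had a ratio of 1.34. miR-34c-5p, the most abundant, was at 1086 RPM in ED-MDSC and 479 in ND-MDSC (ratio 2.27, and 1.73 under TMM). In the miR-322 and miR-503 cluster 3 of 9 members were at least 2-fold higher (median 1.59), a share close to the 33.8% of all miRs, and 1 of 9 was under TMM. In the miR-15 and miR-16 family 0 of 8 were (median 1.40). Both measured members of the miR-183, miR-96 and miR-182 cluster were at least 2-fold higher on totals, against 33.8% of all miRs. Under TMM both were too, against 21%. The median of 10.02 rests in part on miR-96-5p (ratio 14.9). The list summed to 87.9 RPM in ND-MDSC, nearly all of it miR-182, so miR-96-5p passed the read minimum only through ED-MDSC. miR-182 was at 446 RPM in ED-MDSC and 86.5 in ND-MDSC (ratio 5.15), yet the female libraries of the ND-MDSC run had 625 to 1968.

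Several families of muscle and matrix biology lay within 2-fold. None of the 8 let-7 and miR-98 guide arms with the let-7 seed was past 2-fold, with ratios of 0.708 to 1.36. No member of the miR-221 and miR-222 cluster (4, median 1.22), of the miR-199 and miR-214 group (3, median 0.856), or of the miR-26 family (3, median 0.826) was past 2-fold on totals. In the miR-30 family 1 of 10 members was past it, miR-30a-3p, at 57.5 RPM in ED-MDSC and 120.4 in ND-MDSC (ratio 0.479). In the collagen-lowering miR-29 family 1 of 4 was at least 2-fold higher, against 33.8% of all miRs, and 0 lower, against 7.12%, with a median of 1.29. The list of 12 myostatin-related miRs had 5 members at least 2-fold higher and 0 lower, against 33.8% and 7.12% of all miRs (median 1.26, and 3 higher and 2 lower under TMM). The study's other list of 20 had 4 higher, against 33.8% of all miRs, and 4 lower, against 7.12% (median 1.16). Under TMM it had 1 higher, against 21%, and 4 lower, against 11.7%. The study took both lists from differences between late- and early-diabetes male MDSC, so the ED-MDSC side may not be independent of their choice.

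**Figure D4:**
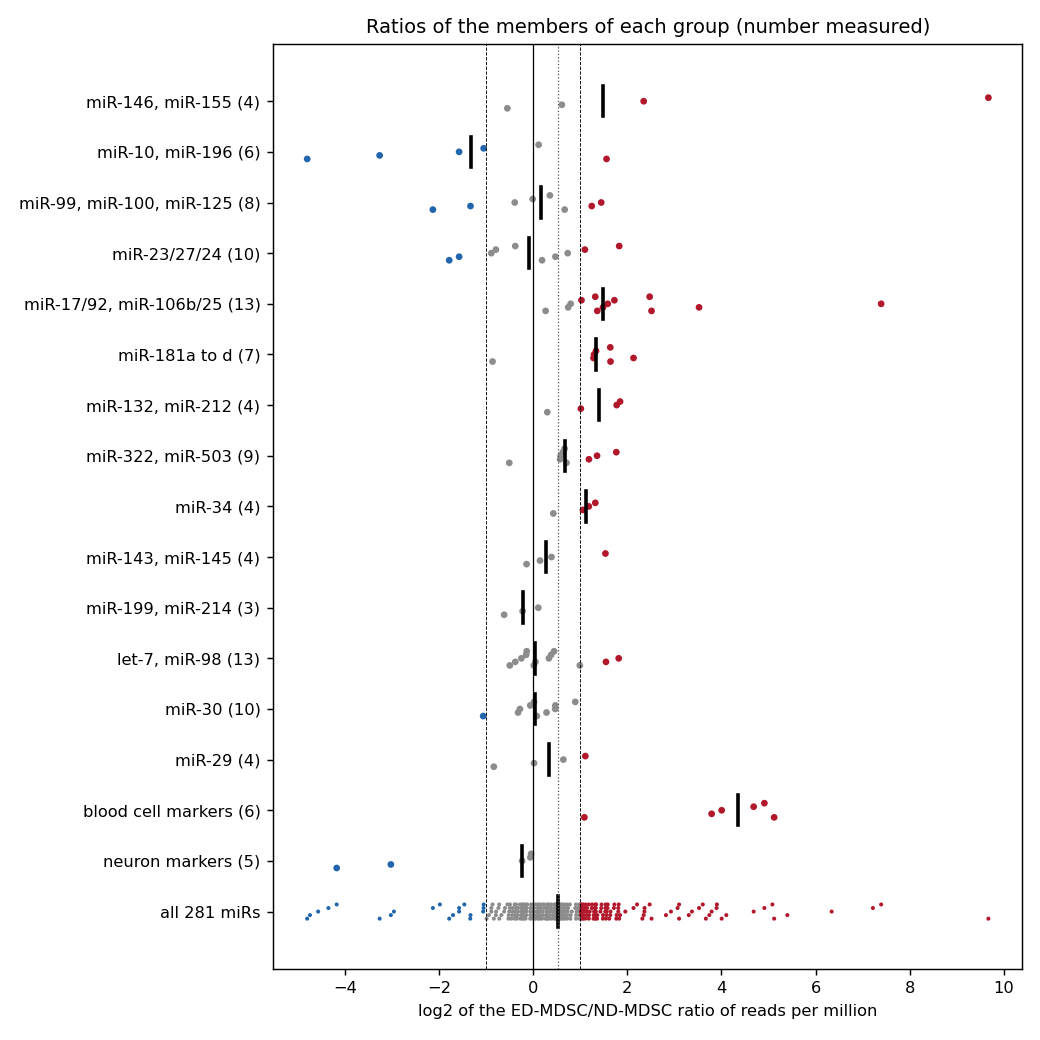
Log2 ED/ND ratio of each member of 16 miR groups and of all 281 miRs, with a black bar at the median of each group, dashed lines at 2-fold and a dotted line at the median of all miRs. The medians of the blood-cell, miR-17/92, miR-181 and miR-132/212 groups lie above the upper dashed line, that of miR-10 and miR-196 below the lower one, and that of let-7 between them. miR-363-3p, with 0 reads in ND-MDSC, is drawn with a pseudocount of 0.5 reads.

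The arms of a precursor did not always move together. Of 71 precursors with both arms measured, 11 had both arms at least 2-fold higher in ED-MDSC and 2 had both at least 2-fold lower. In 26 the ratios of the arms differed by at least 2-fold. The only precursor with an arm past 2-fold in each direction was miR-532, of the chromosome X cluster with miR-362 and miR-500. Its 5p arm was at 246 RPM in ED-MDSC and 91.4 in ND-MDSC (ratio 2.69, interval 2.44 to 2.97) and its 3p arm at 12.5 and 49.9 (ratio 0.253, interval 0.182 to 0.339).

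The second pair of the same cells and runs, both with 5% OZ serum, was set beside the untreated pair. It is of other libraries but has the same confounding of cell and run. The labels name OZ serum for both cells. The study describes serum of male obese rats for ED-MDSC and of female obese rats for the female cells. Which of these ND-MDSC received is not stated in the sources used here. The serum may therefore also differ between the members of this pair. By its own read minimum, 165 of 293 miRs (56.3%) were at least 2-fold higher in ED-MDSC and 35 (11.9%) at least 2-fold lower. Among the 281 miRs the median ratio was 2.23, against 1.45 in the untreated pair, and TMM multiplied the ratios by 0.389. On totals 154 of the 281 were at least 2-fold higher with OZ serum and 33 at least 2-fold lower. Agreement between the pairs has to be read against these counts. Of the 95 miRs at least 2-fold higher in untreated ED-MDSC, 69 were also at least 2-fold higher with OZ serum and 4 at least 2-fold lower. The 4 were the 3 miR-132 and miR-212 arms past 2-fold (ratios of 0.138 to 0.206 with OZ serum) and miR-31a-3p. Of the 20 at least 2-fold lower, 6 were lower and 5 at least 2-fold higher with OZ serum, namely miR-10b-3p, miR-125b-2-3p, miR-23b-3p, miR-27b-5p and miR-672-5p. miR-10a-5p (0.00894), miR-204-5p (0.0391), miR-146a-5p (155), miR-21-3p (42.1) and miR-92a-3p (8.43) kept their direction, and miR-21-5p did not (0.823). Across the 281 miRs, the log2 ratios of the pairs had a Spearman correlation of 0.459 and a Pearson correlation of 0.626, a description over miRs that share libraries' depth and runs.

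**Figure D5:**
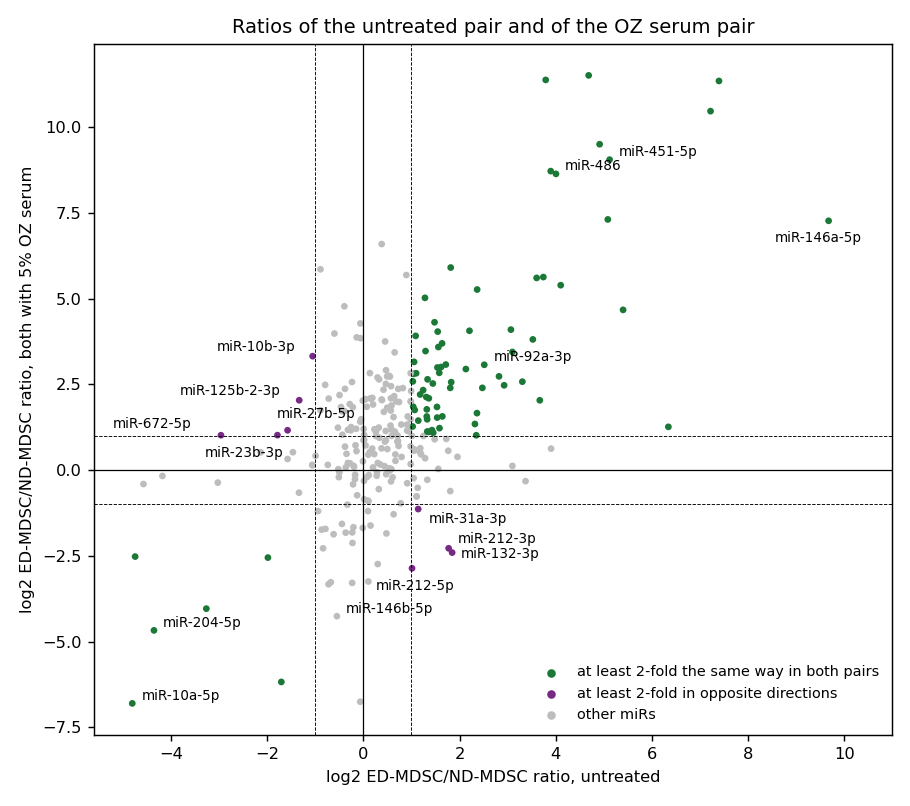
Log2 ED/ND ratio of each miR in the OZ serum pair (vertical axis) against the untreated pair (horizontal axis), with miRs at least 2-fold apart in the same direction in green and in opposite directions in purple. Most miRs past 2-fold in both pairs were in the same direction, 69 higher and 6 lower, against 9 in opposite directions. Ratios are on totals, where 154 of the 281 miRs were at least 2-fold higher in the OZ serum pair and 33 lower.

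Within the male run, the untreated ED-MDSC library was close to the other serum-free ED-MDSC libraries. Against albumin, cyclodextrin and cholesterol, 10.6%, 8.65% and 10.04% of miRs were at least 2-fold apart, with Spearman correlations of levels of 0.975 to 0.979. Against ED-MDSC with LZ and OZ serum 51.2% and 53.5% were, more than the 40.9% between untreated ED-MDSC and ND-MDSC. Of the 95 higher miRs, 81 were at least 2-fold above untreated ND-MDSC in all 4 serum-free ED-MDSC libraries, and of the 20 lower, 13 were at least 2-fold below. These 4 libraries were compared with the same ND-MDSC library, so they show the spread of ED-MDSC only. Over all conditions, 130 of 281 miRs (46.3%) were higher in all 6 ED-MDSC libraries than in both of ND-MDSC, 74 of them among the 95. Only 10 (3.56%) were lower in all 6, 8 of them among the 20.

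The untreated ZF4-SC gave the only view of how far 2 libraries of 1 label lay apart between runs. A difference of 2-fold or more between the serum run's library and the lipid run's was seen for 108 of 274 miRs (39.4%), with a Spearman correlation of 0.906. For untreated ED-MDSC and ND-MDSC the share was 40.9% and the correlation 0.891. With each pair centred on its own median log2 difference, the share was 33.1% for ED-MDSC and ND-MDSC and 39.1% for the ZF4-SC libraries. Neither of the ZF4-SC runs was the male run, so this distance does not measure the male run itself. Between the ZF4-SC libraries 46 of the 95 higher miRs (48.4%) were at least 2-fold apart, in either direction, as were 9 of the 20 lower miRs (45%) and 60 of the 166 within 2-fold (36.1%). Unlike the 39.4%, these shares carry no read minimum in the ZF4-SC libraries, so they include miRs with few reads there. The ratio of the ZF4-SC library of the serum run to that of the lipid run was 0.500 for miR-146a-5p, 0.766 for miR-10a-5p, 0.172 for miR-204-5p and 2.04 for miR-92a-3p. In these libraries miR-146a-5p was at 3.85 and 7.74 RPM and miR-204-5p at 1.08 and 6.60, so their ratios rest on few reads.

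Some miRs separated the male run from the serum run. In all 7 libraries of the male run, 38 of the 281 miRs (13.5%) were above all 8 libraries of the serum run, and 3 (1.07%) were below all 8. Of the 95 miRs higher in untreated ED-MDSC, 24 were among the 38. The group included miR-146a-5p, miR-155-5p, miR-21-3p, miR-451-5p, miR-486, miR-27a-3p and miR-181b-5p. For miR-181b-5p the male run had 419 to 1158 RPM and the serum run 168 to 375. The lipid run overlapped the male run for several of them. For miR-486 the male run had 219.8 to 5144 RPM and the lipid run 292 to 45396, for miR-451-5p 115 to 3882 and 8.57 to 422, and for miR-21-3p 31.4 to 64.9 and 0 to 38.1. Depth in the lipid run fell to 104902 miR reads (1 mM palmitate), so the 38.1 of miR-21-3p may rest on few reads. In the untreated ZF4-SC library of that run miR-21-3p was at 11.8 RPM. The 3 miRs below were miR-10a-5p, miR-10a-3p and miR-871-3p. The last, named after its values were seen, had 0 reads in ED-MDSC and 26 in ND-MDSC, at least 4.38-fold lower against the floor of 3 reads in the ED-MDSC library. For these miRs the level followed the run as fully as it followed early or late diabetes, since the male run held no ND-MDSC and the serum run no ED-MDSC or LD-MDSC.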

How the data were processed

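Small RNA libraries were prepared and sequenced by Norgen Biotek, and the authors deposited raw read counts per miR of miRBase for each run. Aligner, genome build and the treatment of reads with several matches are not given in the sources used here. Both columns of the pair were read by their labels, and 0 columns belonged to no sample. Counts were divided by the library total (3840523 for ED-MDSC, 7596708 for ND-MDSC) and given per 1000000 reads (RPM), with a minimum mean of 10 reads and a pseudocount of 0.5 reads in ratios. TMM factors came from edgeR 4.0.16 and size factors from DESeq2 1.42.0 in R 4.3.3, with no test fitted. Exact (Clopper-Pearson) intervals of ratios came from scipy 1.17.1. The calculation was tested on simulated data. The labels name the quadriceps for the male cells and the study the gastrocnemius, and the study describes no male non-diabetic cells, so ND-MDSC rests on its label.

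Named miRs were the 15 largest ratios in each direction among miRs that averaged 100 reads or more, the 15 most abundant of each library, and members of lists. Exceptions are named as such. The miRs and lists were chosen with earlier results of these data known. Alternatives were TMM, DESeq2 factors, totals without the 3 most abundant miRs, other read minimums, no pseudocount, the OZ serum pair and other ED-MDSC libraries.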

Additional observations from a re-analysis of the deposited data

Results flagged for a closer look

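In 9 miRs the ED/ND ratio was at least 2-fold in opposite directions in the OZ serum pair and in the untreated pair. With 1 library per group in each, the difference between pairs was not tested, and the OZ serum of the 2 cells may differ. Higher in ED-MDSC with OZ serum and lower without it were miR-10b-3p (10.03 with OZ serum, 0.482 untreated), miR-125b-2-3p (4.11 and 0.397), miR-23b-3p (2.03 and 0.290), miR-27b-5p (2.24 and 0.336) and miR-672-5p (2.03 and 0.129). With TMM in the OZ serum pair the ratios of miR-23b-3p, miR-27b-5p and miR-672-5p were 0.790, 0.872 and 0.789, so their direction there depended on the scaling, while miR-10b-3p and miR-125b-2-3p stayed above 1 at 3.90 and 1.60. Lower with OZ serum and higher without it were miR-132-3p (0.189 and 3.60), miR-212-3p (0.206 and 3.42), miR-212-5p (0.138 and 2.02) and miR-31a-3p (0.455 and 2.20), and TMM kept these below 1 in the OZ serum pair.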

How the results depend on the processing

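No paired analysis was possible because each group had 1 library, so the replicate number 1 given to all of them marks no pair. The number of miRs at least 2-fold higher in ED-MDSC, 95 on totals, was 59 with TMM, 54 with DESeq2 size factors, 48 with a mean of at least 100 reads, 191 with no read minimum and 165 in the OZ serum pair. The number at least 2-fold lower, 20 on totals, was 33 with TMM, 40 with DESeq2 size factors, 52 with no read minimum and 35 in the OZ serum pair. The number apart in either direction, 115, was 62 with a mean of at least 100 reads, 243 with no minimum and 200 in the OZ serum pair. TMM and DESeq2 size factors lower every ratio by 1 factor, totals without the 3 most abundant miRs raise it (109 higher and 17 lower), and read minimums change the number of miRs counted. Of the 61 higher and 16 lower named miRs, 37 and 16 stayed past 2-fold with TMM and 33 and 16 with DESeq2 size factors, and 61 and 14 without the 3 most abundant miRs. In the OZ serum pair 45 and 4 did, and the ratio crossed 1 for 9 and 9. Besides those given above, these were miR-10b-5p (1.25), miR-149-5p (1.44), miR-30a-3p (1.11), miR-99a-5p (1.44), miR-21-5p (0.823), miR-29c-5p (0.587), miR-342-3p (0.851), miR-455-3p (0.589) and miR-455-5p (0.699), and the median of the miR-132 and miR-212 list was 0.169. The values given above were 10.03 for miR-10b-3p, 4.11 for miR-125b-2-3p, 2.03 for miR-23b-3p and miR-672-5p, 2.24 for miR-27b-5p, 0.189 for miR-132-3p, 0.206 for miR-212-3p, 0.138 for miR-212-5p and 0.455 for miR-31a-3p. These values are on totals, and TMM multiplied the ratios of the OZ serum pair by 0.389. With TMM miR-10b-5p was at 0.488 and miR-149-5p at 0.560 in that pair. There miR-30a-3p, miR-99a-5p, miR-23b-3p, miR-27b-5p and miR-672-5p were below 1 with TMM too. For all of these the crossing depended on the scaling. The cause of the crossings was not tested. With ED-MDSC treated with albumin, cyclodextrin or cholesterol in place of untreated ED-MDSC, alternatives chosen after seeing the data, the ratio crossed 1 for miR-29c-5p with albumin (0.868) and for miR-224-3p with cholesterol (1.38), which had 4 reads in untreated ED-MDSC. Depth limits miRs near 10 reads: miR-16-3p, with 7 reads in ED-MDSC and 13 in ND-MDSC, was just inside the minimum and miR-219a-5p, with 11 and 8, just outside.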

Other observations

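Some of the largest ratios belonged to entries with no list, and these are named after their values were seen. The predicted entry p-miR-25-1 and p-miR-25-2 had 8468 reads in ED-MDSC and 112 in ND-MDSC (2205 against 14.7 RPM, ratio 149, interval 124 to 182). It was at 2205 to 14740.4 RPM over the 7 libraries of the male run, 3.12 to 117 in the serum run and 27.8 to 2936 in the lipid run. Both arms of miR-582 were higher in untreated ED-MDSC: miR-582-3p had 457 reads in ED-MDSC and 60 in ND-MDSC (ratio 14.96, interval 11.5 to 20.1) and miR-582-5p had 44 and 8 (ratio 10.4). With OZ serum the ratios were 1.55 and 0.801. miR-1949 had 128 reads in ED-MDSC and 7 in ND-MDSC (ratio 33.9, interval 17.1 to 91.8), and 159 was its ratio with OZ serum. Of the miR-101 pair, with 1 seed, miR-101b-3p was at 570.5 RPM in ED-MDSC and 208 in ND-MDSC (ratio 2.74) and miR-101a-3p at 883 and 1455 (ratio 0.607).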
